A study of Mus musculus with 12 samples.

Results

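The sestrins, Txnip and the brakes on the kinase mTOR are 10 genes, most of them known FoxO targets: Sesn1, Sesn2, Sesn3, Ddit4, Tsc1, Tsc2, Pik3ip1, Txnip, Tsc22d3 and Cited2. Every probe set that the platform annotation pairs with one of them was taken, which gave 23 of 45101 probe sets on the array and 10 of 18194 named genes. The 12 arrays held 4 groups of 3: wild-type LSK cells (arrays 1 to 3), FoxO-deficient LSK cells (4 to 6), wild-type myeloid progenitors (7 to 9) and FoxO-deficient myeloid progenitors (10 to 12). LSK cells are marrow cells that lack lineage markers and carry Sca-1 and Kit, a fraction that contains the stem cells, and myeloid progenitors are their more restricted descendants. All 4 groups came from mice with floxed FoxO1, FoxO3 and FoxO4 (FoxO1/O3/O4LoxP/LoxP). The wild-type groups were Mx-Cre- and the deficient groups Mx-Cre+, so the loss of FoxO and the presence of the transgene cannot be told apart. The Mx promoter answers interferon, and Cre under it acts in blood cells and other tissues. Cells were sorted from pooled mice, and the labels give neither ages nor an inducing agent. Whether a group's 3 arrays stem from 3 pools is not stated either, so the p-values rest on a spread between arrays that may be technical. The study asked how FoxO loss acts on genes of reactive oxygen species metabolism.

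FoxO factors are held out of the nucleus when insulin or growth factors activate PI3K and Akt, and the same signal switches on mTORC1, the complex that drives protein synthesis and growth. Several FoxO targets act as brakes on that signal. Sestrins restrain mTORC1 through the amino acid sensing GATOR complexes and through AMPK, and also protect against oxidants. Ddit4 (REDD1) releases the Tsc1 and Tsc2 complex, which turns off Rheb, the small GTPase that activates mTORC1. Pik3ip1 binds and inhibits PI3K itself. Txnip binds thioredoxin and limits glucose uptake, Tsc22d3 (GILZ) is a leucine zipper protein that glucocorticoids induce, and Cited2 competes with hypoxia factors for the coactivators p300 and CBP and is required for the upkeep of stem cells.

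RefSeq promoters (build GRCm38.p6, 250 bases before to 50 after a start site) were matched by symbol to all 10 genes, with 13 promoters in all. They were searched on both strands for GTAAACA, the core letters of the forkhead recognition element, and for CAAAACA, the core of the insulin response element. No match of either word overlapped one of the other. GTAAACA or its reverse complement stood in 2 of the 13, those of Txnip and of the first Sesn1 start, against 3.65% of all 32851 promoters of this length. CAAAACA stood in 0 of 13, against 6.28% of all. The promoters below are those of Txnip and Sesn1, which hold the word, and of Ddit4, the gene with the largest FoxO difference, which does not. Capitals mark the match.
Txnip: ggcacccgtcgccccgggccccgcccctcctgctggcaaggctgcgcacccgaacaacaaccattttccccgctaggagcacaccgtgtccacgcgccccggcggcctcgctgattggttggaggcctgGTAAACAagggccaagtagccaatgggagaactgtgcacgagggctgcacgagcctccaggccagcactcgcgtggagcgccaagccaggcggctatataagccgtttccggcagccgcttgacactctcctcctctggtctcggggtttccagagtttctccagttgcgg
Sesn1: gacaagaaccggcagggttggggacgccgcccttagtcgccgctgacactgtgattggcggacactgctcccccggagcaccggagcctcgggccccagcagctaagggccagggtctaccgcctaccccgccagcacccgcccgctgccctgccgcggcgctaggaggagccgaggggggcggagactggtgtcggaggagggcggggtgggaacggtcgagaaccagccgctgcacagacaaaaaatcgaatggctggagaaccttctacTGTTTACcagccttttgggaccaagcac
Ddit4: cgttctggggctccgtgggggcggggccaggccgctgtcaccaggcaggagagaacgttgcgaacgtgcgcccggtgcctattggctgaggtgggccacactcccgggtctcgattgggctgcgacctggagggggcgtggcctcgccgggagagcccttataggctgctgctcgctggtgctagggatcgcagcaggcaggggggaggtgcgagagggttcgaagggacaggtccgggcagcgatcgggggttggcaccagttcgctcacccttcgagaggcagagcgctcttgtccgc
The Txnip window is chr3:96557707-96558006 on the plus strand, and its match runs from position -121 to -115 on the strand of the gene, counted from the start site at +1. The Sesn1 window is chr10:41810324-41810623, plus strand, with its match on the opposite strand at positions 23 to 29, after the start. The Ddit4 window is chr10:59951721-59952020 on the minus strand, printed 5′ to 3′ on the strand of the gene. A match describes letters and not binding, and a missing match says only that the word is not in this window.

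Values are intensities after quantile normalization, on a linear scale, and levels of different probe sets are not compared. A group level is the geometric mean of its 3 arrays. The brightest of 27 bacterial control probe sets gave each array a limit for background, between 5.14 and 13. Array 2, a wild-type LSK array, stood out in its control probe sets: its 3′ over 5′ signal ratio was 344 for Gapdh and 145 for Actb, against 1.77 to 2.37 and 2.74 to 3.36 on the other 11 arrays. It read farthest from its group's median for 17 of the 23 probe sets. Results are therefore given with it and without it. The targeted gene Foxo4 fell from 393.4 to 85.8 in LSK cells and from 329.8 to 59.9 in myeloid progenitors (limma, adjusted p = 0.00162 and 0.000114). Foxo1 read 104 and 27.2, then 23.45 and 12.5, and Foxo3 2421 and 2828, then 1860 and 2414, without passing in either cell type with all arrays. Without array 2, Foxo3 was called higher in deficient myeloid progenitors (0.37 ± 0.09, limma adjusted p = 0.0378). The sources used here do not state which part of each gene is deleted, so a probe set may lie outside it.

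Marker lists were summed on each array to check the sorted cells. LSK and stem cell markers (10 genes) summed to between 6544 and 7305 on LSK arrays and between 1545 and 1926 on myeloid progenitor arrays. Myeloid progenitor markers (10 genes) summed to 5301 to 6898 and 6859 to 7041 in wild-type and deficient LSK arrays, and to 16180 to 16600 and 19810 to 20570 in the myeloid progenitor groups. T and NK cell markers (4 genes) summed to at most 40.6 on any array. Late neutrophil markers (9 genes) summed to 5989 to 8220 and 8529 to 8769 in the LSK groups (wild-type, then deficient), and to 4468 to 4616 and 6286 to 6606 in the myeloid progenitor groups. Erythroid markers (7 genes) summed to 3093 to 4771 and 4377 to 4611 in the LSK groups, and to 10920 to 11680 and 9221 to 9553 in the myeloid progenitor groups. Their median difference in LSK cells was -0.75, with 1 called lower, and also 1 without array 2. In myeloid progenitors it was -0.83, with 0 called, or 3 called lower without array 2, against 3.53% of all genes. Mature B and plasma cell markers (4 genes) summed to 678.4 to 1090 and 1716 to 1790, then to 101.7 to 134.2 and 220.9 to 239.6, the deficient arrays lying above the wild-type ones in both cell types. Eosinophil, basophil and mast cell markers (8 genes) summed to 1218 to 2345 on wild-type and 2034 to 2199 on deficient LSK arrays, which overlap. Their median difference in LSK cells was 1.93, with 1 called higher, or 5 without array 2. Over all genes, 0.124% were called higher there, or 0.558% without array 2. Only 3 of the 8 were above background on all wild-type LSK arrays. Monocyte and macrophage markers (5 genes) summed to 613.7 to 728.7 and 371.2 to 418.1 in the myeloid progenitor groups, and megakaryocyte markers (6 genes) to 401.3 to 441.1 and 277.3 to 335.6. The part of these lists in the results was not tested. In sorted bulk cells, fewer cells of a type and less RNA per cell cannot be told apart.

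**Figure D1:**
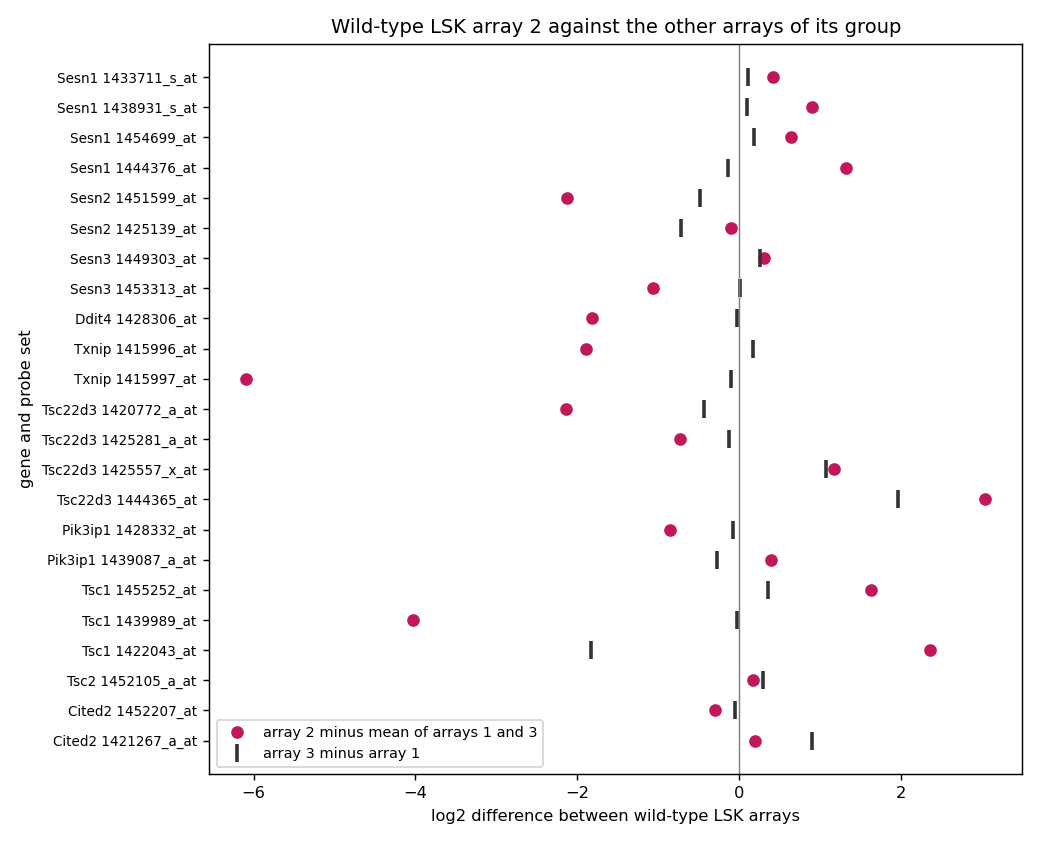
Wild-type LSK array 2 against the other arrays of its group, for the 23 probe sets. Dots give the log2 difference between array 2 and the mean of arrays 1 and 3, and ticks the log2 difference between arrays 3 and 1; on array 2, 7 probe sets lie more than 1 below and 5 more than 1 above.

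Array 2 differed from the mean of arrays 1 and 3 by more than 1 on the log2 scale for 12 of 23 probe sets, 7 lower and 5 higher, as did 43.4% of all 31779 probe sets that passed the filter on dim signal. Probe sets of a gene parted on it. The dimmer Txnip probe set, 1415997_at, was lower by 6.09 on the log2 scale on array 2, and the brighter, 1415996_at, by 1.89. Of the Tsc1 probe sets, 1439989_at was lower by 4.03 and 1455252_at higher by 1.64. The larger of these gaps exceed every FoxO difference measured among the 10 genes.

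All 10 genes and all 23 probe sets passed the filter. Calls were made at an adjusted p under 0.05 (two-sided) in the limma fit of all 12 arrays, adjusted over 13732 genes, each gene read through its brightest probe set. In LSK cells, 0 of the 10 genes were called between deficient and wild-type (1 at an unadjusted p under 0.05), where 0.124% of all genes were called higher and 0.146% lower. In myeloid progenitors 1 was called, Ddit4, lower, against 1.09% of all genes called lower and 0.757% higher. For the difference between these effects 0 were called (2 at an unadjusted p under 0.05), against 0.291% higher and 0.568% lower. Between wild-type myeloid progenitors and wild-type LSK cells, 3 were called lower, Sesn1, Sesn3 and Pik3ip1, and 0 higher, against 11.5% and 9.95%. The median log2 difference over the 10 genes was -0.26, 0.02, 0.33 and -0.65 in these 4 comparisons, and over all genes -0.04, 0.04, 0.07 and 0.02. The comparisons share arrays, so their values are not independent of each other. Counts of these genes or of the lists at an unadjusted p under 0.05 stand without the share of all genes. Such counts cannot be read as an excess.

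Without array 2, the arrays were normalized, filtered and fitted anew, with 13445 genes. In LSK cells Txnip was then called lower, where 0.431% of all genes were lower and 0.558% higher. In myeloid progenitors Ddit4 was called lower and Cited2 higher, against 3.53% and 5.36% of all genes. The difference of the effects was called for Ddit4 (negative, 1.74% of all genes) and for Pik3ip1 and Cited2 (positive, 1.77%). Between the wild-type groups 6 of the 10 genes were called lower, Sesn1, Sesn3, Ddit4, Txnip, Tsc22d3 and Pik3ip1, and 0 higher, against 16.6% and 18.4% of all genes. The medians over the 10 genes were -0.38, 0.02, 0.32 and -0.72, and over all genes -0.01, 0.04, 0.05 and 0.04.

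**Figure D2:**
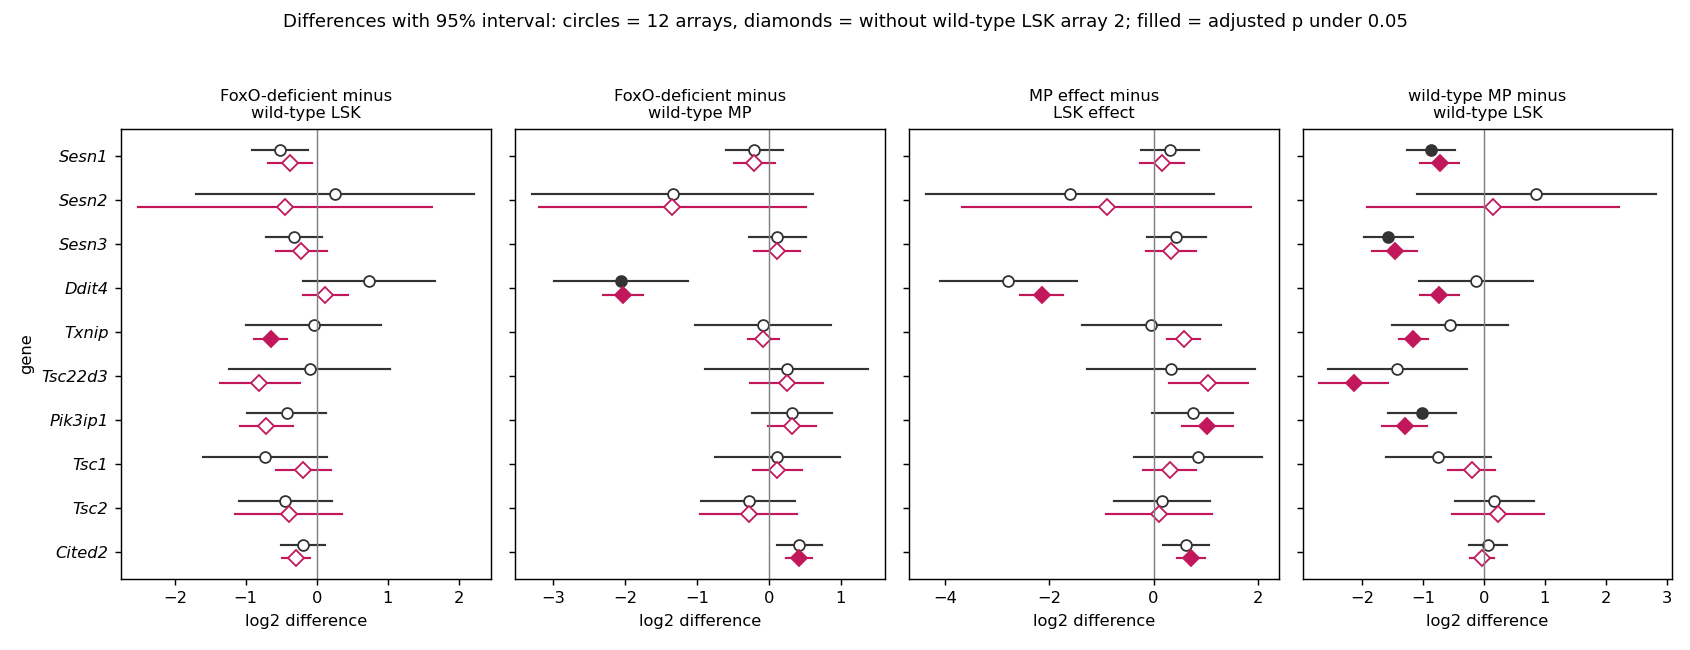
Log2 differences of the 10 genes in the 4 comparisons, with their 95% interval (MP: myeloid progenitors). Circles are the fit of 12 arrays and diamonds the fit without wild-type LSK array 2, and filled marks have an adjusted p under 0.05; Ddit4 is filled in both fits for myeloid progenitors, and the diamonds' intervals are mostly shorter.

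**Figure D3:**
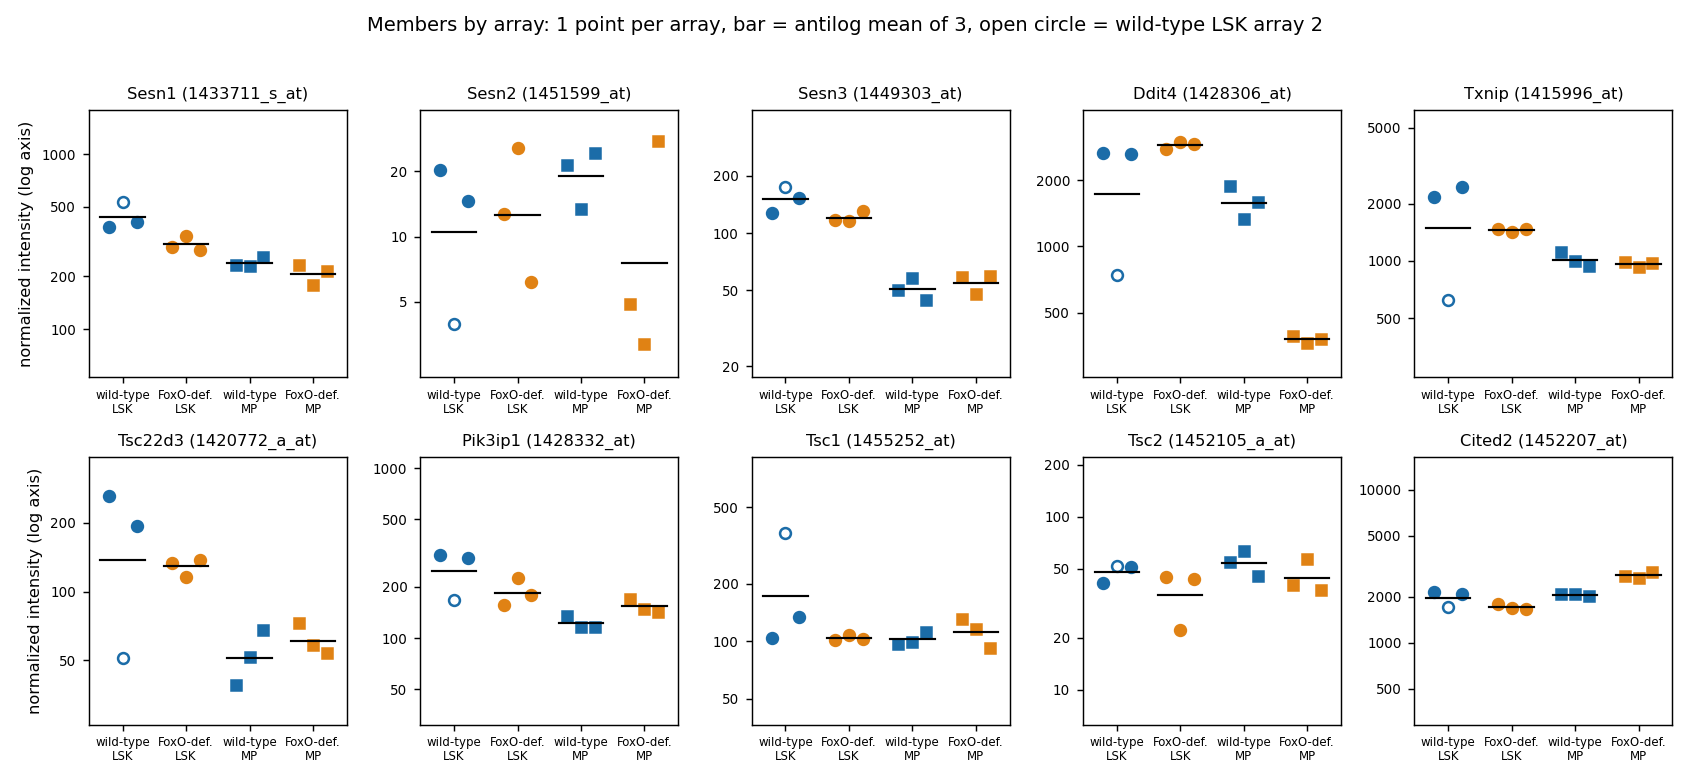
Normalized intensity of the brightest probe set of each gene on each array, on log axes, by group (MP: myeloid progenitors). Each point is an array, bars are the geometric mean of 3 arrays and the open circle is wild-type LSK array 2; the 3 Ddit4 points of FoxO-deficient myeloid progenitors, 364.3 to 393.2, lie below every other array.

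Whole groups stood apart between deficient and wild-type LSK cells for 4 of the 23 probe sets lower (3 of Sesn1 and 1 of Tsc22d3) and 1 higher (Ddit4), where the same held for 7.57% and 8.63% of all probe sets. In myeloid progenitors the groups stood apart for 2 lower (Ddit4 and 1 of Sesn1) and 2 higher (Pik3ip1 and Cited2), against 13.3% and 15.0%. Between the wild-type groups they stood apart for 6 lower and 0 higher, against 14.4% and 16.7%. These 6 were 3 probe sets of Sesn1 and 1 each of Sesn3, Tsc22d3 and Pik3ip1.

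Sesn1 and Sesn3 were lower in wild-type myeloid progenitors than in wild-type LSK cells, and no FoxO difference of a sestrin was called. Sesn1, a p53-inducible sestrin, read 381.2, 530.1 and 411.1 on wild-type LSK arrays 1 to 3 and 295.7, 341.2 and 281.7 on the deficient LSK arrays (probe set 1433711_s_at). It read 231.3, 230.6 and 257.3 in wild-type and 231.5, 179.3 and 215 in deficient myeloid progenitors. The LSK groups did not overlap, every deficient array lying below every wild-type one, and the myeloid progenitor groups did overlap. Between wild-type cell types Sesn1 was lower in myeloid progenitors, 1.82-fold (log2 difference -0.87 ± 0.18 SE, limma adjusted p = 0.00715). The FoxO difference was -0.52 ± 0.18 in LSK cells (adjusted p = 0.335) and -0.21 ± 0.18 in myeloid progenitors (adjusted p = 0.751), neither called. Without array 2 these 3 values were -0.72 ± 0.14, -0.37 ± 0.14 and -0.21 ± 0.12 (adjusted p = 0.00432, 0.24 and 0.361). The cell type call of Sesn1 was lost with median scaling (-0.58, adjusted p = 0.0758), with the mean of its probe sets (-0.57, adjusted p = 0.119), without normalization between arrays (-0.64, adjusted p = 0.119), and in a fit of the compared groups alone (adjusted p = 0.0593).

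The other Sesn1 probe sets were a pair of bright ones and a dim one. Probe set 1438931_s_at had group levels of 373.4, 234.1, 189 and 140.6 in the order of the arrays, and 1454699_at 201.1, 139, 107.4 and 75.1. Their LSK differences were -0.67 ± 0.29 and -0.53 ± 0.26 and their myeloid progenitor differences -0.43 ± 0.29 and -0.52 ± 0.26, all with the sign of the first probe set and none called. Their cell type differences were -0.98 ± 0.29 and -0.91 ± 0.26 (limma over all probe sets, adjusted p = 0.0511 and 0.0459). The dim probe set 1444376_at read between 13.9 and 41 on all arrays. Its FoxO differences were -0.35 ± 0.36 in LSK cells, or 0.09 ± 0.24 without array 2, and -0.47 ± 0.36 in myeloid progenitors, and were not called. Its cell type difference went the other way, higher in wild-type myeloid progenitors by 0.47 ± 0.36 with all arrays and by 0.92 ± 0.24 without array 2 (limma over all probe sets, adjusted p = 0.437 and 0.0224).

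Sesn3, the sestrin best known as a FoxO target, was lower in myeloid progenitors of both genotypes. Its probe set 1449303_at read 128.2, 174.4 and 153.6 on the wild-type LSK arrays and 116.8, 116.1 and 130.1 on the deficient ones. In myeloid progenitors it read 50.5, 58.4 and 44.6, then 58.5, 47.6 and 59.8. Each genotype's LSK arrays lay above all 6 myeloid progenitor arrays, while genotypes overlapped within each cell type. Wild-type myeloid progenitors were 2.97-fold below wild-type LSK cells (-1.57 ± 0.18, limma adjusted p = 0.000254, and -1.46 ± 0.16, adjusted p = 0.00024, without array 2). This call held in 11 other settings of the processing and with each of the 12 arrays left out. The FoxO difference was -0.32 ± 0.18 in LSK cells, with a 95% interval from -0.72 to 0.08, and 0.11 ± 0.18 in myeloid progenitors, with an interval from -0.28 to 0.51 (adjusted p = 0.515 and 0.901). The second probe set, 1453313_at, read between 4.04 and 19.7, close to background.

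Sesn2, the stress-induced sestrin, was near background throughout. Probe set 1451599_at read between 3.2 and 27.5 and 1425139_at between 1.47 and 15.45. The first was above the limit on 8 of 12 arrays and the second on 5. The spread was wide, with 4.86, 3.2 and 27.5 on the 3 deficient myeloid progenitor arrays. No difference was called, and the intervals in myeloid progenitors ran from -3.3 to 0.62 for the first probe set and from -1.87 to 1.86 for the second.

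Ddit4 had the largest FoxO difference of the 10 genes. On probe set 1428306_at, its only one, it read 1877, 1326 and 1585 in wild-type myeloid progenitors and 393.2, 364.3 and 381.6 in deficient ones. It read 2660, 745.4 and 2615 on wild-type LSK arrays 1 to 3 and 2763, 2976 and 2898 on the deficient LSK arrays. The deficient myeloid progenitors were the lowest group and lay apart from all other arrays. Every deficient LSK array lay above every wild-type one, and array 2 lay far below the other LSK arrays. Ddit4 fell 4.16-fold in deficient myeloid progenitors (-2.06 ± 0.42, limma adjusted p = 0.0408). In LSK cells it read 1731 and 2878 as group levels (0.73 ± 0.42, adjusted p = 0.522), or 2662 and 2898 without array 2 (0.12 ± 0.14, adjusted p = 0.749). The difference between the 2 effects was -2.79 ± 0.59 (adjusted p = 0.0743).

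All 4 groups share 1 estimate of the spread in the fit, and the Ddit4 difference in myeloid progenitors was called with array 2 and without it. With array 2 in the fit, leaving out any 1 of arrays 4 to 12 lost the myeloid progenitor call (adjusted p from 0.0698 to 0.139), as did no normalization (-1.92, adjusted p = 0.138) and no filter (adjusted p = 0.064). The fit of the myeloid progenitor arrays alone gave -2.04 (adjusted p = 0.00339). Without array 2 the difference was 4.08-fold (-2.03 ± 0.12, adjusted p = 3.76e-05) and it stayed called when any 1 of the other 11 arrays was also left out (adjusted p from 5.46e-05 to 0.000433). The difference between the effects was then -2.15 ± 0.18 (adjusted p = 0.000546), and called in 11 of 11 of these further fits. Wild-type myeloid progenitors read 1.66-fold below wild-type LSK cells without array 2 (-0.73 ± 0.14, adjusted p = 0.00405), against -0.13 ± 0.42 with it (adjusted p = 0.863).

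The genes most like Ddit4 over the 12 arrays, by Pearson r, were Dusp5, a phosphatase of ERK (r = 0.989), Zc3h12a, which encodes the RNA-cleaving protein Regnase-1 (0.988), and Ttc19, of the mitochondrial respiratory chain (0.984). Without array 2 the values were 0.989, 0.987 and 0.987. These are descriptions over arrays that share 4 groups, with the genes picked for the value. Dusp5 read 802.4, 741.1 and 791.5 in wild-type and 61.4, 83.5 and 73.7 in deficient myeloid progenitors. It read 3160, 247.7 and 2847 on wild-type LSK arrays, with array 2 low as for Ddit4, and 3439, 3428 and 4160 on deficient ones. Zc3h12a read 98.3 and 15.3 in the myeloid progenitor groups, and Ttc19 297.9 and 127.

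Immediate-early genes, which stress, growth factors or tissue dissociation induce within minutes, moved in the same arrays. Of 32 such genes 28 were lower and 1 higher in deficient myeloid progenitors, against 1.09% and 0.757% of all genes. The median of the 32 was -3.23, against 0.04 for all genes. Their summed level was 27170 to 27970 on the wild-type and 4121 to 4271 on the deficient myeloid progenitor arrays. In LSK cells it was 40910 to 42250 and 43590 to 44200, with array 2 at 42250, so array 2 was low for Ddit4 and not for this sum. In deficient myeloid progenitors 6 of the 32 genes, Fosb, Egr3, Atf3, Nr4a1, Nr4a3 and Ccn1, were at or below background on all arrays. Ccn1 was so on all wild-type myeloid progenitor arrays too. In LSK cells 0 of the 32 were called by limma (6 at an unadjusted p under 0.05). Without array 2, 1 was called higher in deficient LSK cells, Cd69 (0.89 ± 0.12, limma adjusted p = 0.016), against 0.558% of all genes. The part of these genes' fall in the Ddit4 result was not tested.

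**Figure D4:**
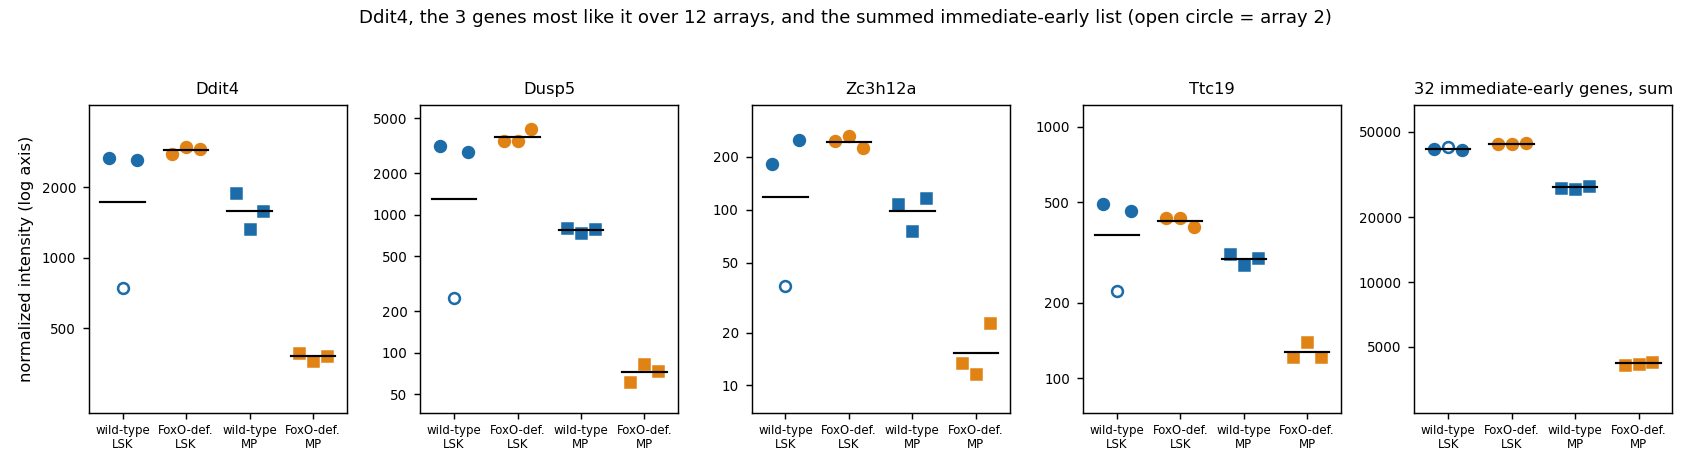
Normalized intensity on each array, on log axes, of Ddit4, the 3 genes with the highest correlation to it and the sum of 32 immediate-early genes, by group (MP: myeloid progenitors; open circle: wild-type LSK array 2; bars: geometric mean of 3 arrays). All 5 panels are lowest in FoxO-deficient myeloid progenitors, and array 2 is low in the 4 single genes but at 42250 in the sum.

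Tsc1 and Tsc2, the complex that Ddit4 acts on, were not called in any comparison. Tsc2 read between 22.2 and 63.1 on all 12 arrays (1452105_a_at), with group levels of 48, 35.3, 54 and 44.4. Its FoxO differences were -0.44 ± 0.29 in LSK cells and -0.28 ± 0.29 in myeloid progenitors, with intervals from -1.1 to 0.21 and from -0.94 to 0.37. Tsc1 read 367.1 on array 2 and between 92.1 and 133.6 on the other arrays (1455252_at). Without array 2 its differences were -0.19 ± 0.17 in LSK cells and 0.12 ± 0.15 in myeloid progenitors (adjusted p = 0.665 and 0.689), and both intervals lay within -0.57 and 0.46. Another Tsc1 probe set, 1439989_at, read 2.96 on array 2 and between 20.2 and 60.7 elsewhere, and 1422043_at lay near background, between 1.44 and 19.7.

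Pik3ip1, the inhibitor of PI3K, had the opposite order of genotypes in the 2 cell types. On probe set 1428332_at it read 310, 167.4 and 295 on the wild-type and 157.2, 224.9 and 179.2 on the deficient LSK arrays. In myeloid progenitors it read 135.4, 116.9 and 116.8, then 170.7, 148.8 and 143. Deficient arrays lay above all wild-type ones in myeloid progenitors, and in LSK cells they lay below arrays 1 and 3, with array 2 among them. The cell type difference passed, wild-type myeloid progenitors being 2.02-fold below wild-type LSK cells (-1.02 ± 0.25, limma adjusted p = 0.0169, and 2.47-fold, adjusted p = 0.00049, without array 2). That call was lost without array 8 or 9 (adjusted p = 0.054 and 0.0542), without normalization (-0.8, adjusted p = 0.198) and in a fit of the compared groups alone (adjusted p = 0.0899). The FoxO differences were -0.42 ± 0.25 and 0.32 ± 0.25 and were not called (adjusted p = 0.53 and 0.697).

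Without array 2, Pik3ip1 read 314.4 and 192.4 in the LSK groups (-0.71 ± 0.16, adjusted p = 0.0834), and the difference between the effects, 1.03 ± 0.22, passed (adjusted p = 0.043). It rested on single arrays: with 1 further array left out it passed in 1 of 11 fits (adjusted p from 0.0235 to 0.12), and over all probe sets it had an adjusted p of 0.0615. The second probe set, 1439087_a_at, read between 30.7 and 53.6 and had differences of the same signs, -0.22 ± 0.2 and 0.2 ± 0.2. Closest to Pik3ip1 over the 12 arrays were Chchd7, which encodes a mitochondrial protein, Leprotl1, a relative of the leptin receptor overlapping transcript, and the calcium channel gene Orai1 (r = 0.932, 0.926 and 0.922).

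Txnip, the thioredoxin-binding arrestin, was highest on wild-type LSK arrays 1 and 3. Probe set 1415996_at read 2177, 622.9 and 2441 on wild-type LSK arrays 1 to 3 and 1474, 1418 and 1464 on the deficient ones. It read 1119, 1000 and 936.5 in wild-type and 982.4, 930.8 and 973.7 in deficient myeloid progenitors. Array 2 was the lowest of the 12, and the deficient LSK arrays lay between arrays 1 and 3 and the myeloid progenitors. With all arrays the LSK difference was -0.04 ± 0.42 (limma adjusted p = 0.973). Without array 2 Txnip was 1.57-fold lower in deficient LSK cells (2328 and 1480, -0.65 ± 0.1, adjusted p = 0.0309), with an adjusted p of 0.0667 over all probe sets. When 1 further array was left out it passed in 2 of 11 fits, those without array 7 or 9 (adjusted p from 0.0372 to 0.107, differences from -0.73 to -0.57).

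The dimmer Txnip probe set, 1415997_at, had the same order of groups without array 2. It read 137.4, 1.95 and 128.2 on wild-type LSK arrays and 49, 74.4 and 81.7 on deficient ones, then 37.9, 55.4 and 57.6 and 33.9, 37.3 and 45.3 in myeloid progenitors. Without array 2 its LSK difference was -0.99 ± 0.27, which was not called (adjusted p = 0.153 over probe sets). In myeloid progenitors the difference of the brighter probe set was -0.08 ± 0.42, or -0.08 ± 0.09 without array 2 with an interval from -0.29 to 0.14. The difference between the effects without array 2 was 0.58 ± 0.14 (adjusted p = 0.0664), so the LSK fall is not shown to differ from the myeloid progenitor value. Txnip was, between wild-type cell types, 2.23-fold lower in myeloid progenitors without array 2 (-1.16 ± 0.1, adjusted p = 9.68e-05), called in 11 of 11 further fits, and not called with array 2 (-0.55 ± 0.42, adjusted p = 0.4).

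Tsc22d3, the glucocorticoid-induced leucine zipper gene, read higher in wild-type LSK cells than in wild-type myeloid progenitors on its brighter probe sets. No FoxO difference was called. Probe set 1420772_a_at read 261.7, 51.3 and 194.2 on wild-type and 133.9, 116.1 and 137.8 on deficient LSK arrays, and between 39 and 73 on all myeloid progenitor arrays. Probe set 1425281_a_at read 180.9, 104.4 and 165.9, then 90.8, 76.6 and 83.3, and between 39 and 76.4 in myeloid progenitors. For the second probe set all deficient LSK arrays lay below all wild-type ones, array 2 included (-0.81 ± 0.28, adjusted p = 0.372 over probe sets). Without array 2 the LSK differences were -0.81 ± 0.25 and -1.06 ± 0.24, neither called (adjusted p = 0.164 over genes and 0.109 over probe sets). Between wild-type cell types 1425281_a_at was 2.69-fold lower in myeloid progenitors (-1.43 ± 0.28, adjusted p = 0.00816 over probe sets). The brighter probe set read -1.42 ± 0.51 (adjusted p = 0.0765), or 4.38-fold lower without array 2 (-2.13 ± 0.25, adjusted p = 0.000342). The other probe sets, 1425557_x_at and 1444365_at, read at most 32.55 and 14.5. Their cell type differences went the other way, 0.49 ± 0.52 and 0.21 ± 1.14, and were not called (limma over all probe sets, adjusted p = 0.588 and 0.931). For 1425557_x_at it was 0.89 ± 0.54 without array 2 (adjusted p = 0.282).

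Cited2, the p300-binding regulator, was highest in deficient myeloid progenitors. Probe set 1452207_at read 2081, 2065 and 2016 in wild-type and 2724, 2647 and 2904 in deficient myeloid progenitors. It read 2140, 1706 and 2065 in wild-type and 1794, 1680 and 1647 in deficient LSK cells. The myeloid progenitor groups stood apart and the LSK groups overlapped only through array 2. The myeloid progenitor difference was 1.34-fold (0.42 ± 0.14), which did not pass with all arrays (limma adjusted p = 0.212) and did without array 2 (0.42 ± 0.08, adjusted p = 0.0142). Of 11 other settings it passed in 2, a fit of the myeloid progenitor arrays alone (adjusted p = 0.0398) and array weights (adjusted p = 0.0131). Over the 11 settings the difference ran from 0.15 to 0.45 (limma adjusted p up to 0.848). Of the 12 fits with 1 array left out it passed in 1, that without array 2. With 1 further array left out beside array 2 it passed in 10 of 11 fits, the exception being array 12 (adjusted p from 0.0191 to 0.0521).

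In LSK cells the Cited2 difference was -0.2 ± 0.14, or -0.29 ± 0.09 without array 2 (adjusted p = 0.584 and 0.158). The difference between the effects was 0.63 ± 0.2 (adjusted p = 0.255), and without array 2 it was 0.71 ± 0.12 and passed (adjusted p = 0.0167), as it did in 10 of 11 further fits, the exception being array 1 (adjusted p from 0.0324 to 0.0615). Wild-type cell types differed by 0.07 ± 0.14. A dim Cited2 probe set, 1421267_a_at, read between 18.3 and 43.9 and differed by 0.04 ± 0.34 in LSK cells and by -0.12 ± 0.34 in myeloid progenitors.

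Across the arrays, the genes fell into patterns that array 2 partly hid. Without it, over 11 arrays, Sesn1, Sesn3, Txnip, Tsc22d3 and Pik3ip1 correlated with each other at Pearson r between 0.81 and 0.92. With all 12 arrays, Sesn1 and Txnip correlated at 0.27 in place of 0.92. Ddit4 correlated with these 5 at 0.42 to 0.79 and with Cited2 at -0.92, over the 11 arrays. These arrays share 4 groups, and the values describe the group levels above. Among the genes most like Sesn3 over 12 arrays were Myadm, a membrane protein gene (r = 0.991), and the class I histocompatibility gene H2-D1 (0.985). Those most like Sesn1 were Ypel5 (0.972), the zinc finger gene Zfp560 (0.961) and Ssh1, a cofilin phosphatase gene (0.954).

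No other gene of the mTOR lists was called between genotypes in the fit of 12 arrays. Of 15 measured genes of the mTOR complexes and their outputs, 0 were called in LSK cells and 0 in myeloid progenitors by limma (1 and 1 at an unadjusted p under 0.05). Rheb, the GTPase that Tsc2 turns off, read 683.7 and 660.3, then 589.8 and 614.9. Mtor itself read 73.4 and 55.5, then 71.5 and 70.4. In the cell type comparison 1 of the 15 was called, Ulk1, the autophagy kinase that mTORC1 inhibits, lower in myeloid progenitors, from 131.6 to 73.05 (-0.85 ± 0.19, adjusted p = 0.0126).

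Of 23 measured genes of the amino acid branch, where sestrins act, 0 were called in either FoxO comparison (6 and 2 at an unadjusted p under 0.05). Without array 2, 2 were lower in deficient LSK cells, against 0.431% of all genes. These were Castor2, an arginine sensor relative (-1.68 ± 0.28, adjusted p = 0.0384), and Slc38a9, the lysosomal arginine transporter (-0.88 ± 0.12, adjusted p = 0.016). Between wild-type cell types 4 were higher and 1 lower in myeloid progenitors. The higher ones were Sec13 of GATOR2 (313.8 to 606.3), Lamtor2 of the Ragulator (57.1 to 113), Nprl3 of GATOR1 (11.8 to 24.9) and Sar1b, a leucine sensor (402.7 to 665.4). The lower one was Castor2 (67.5 to 25.6). Of 16 other brakes from growth factor and energy signalling, 0 were called in either FoxO comparison (1 and 2 at an unadjusted p under 0.05). Without array 2, 3 AMPK subunit genes were called in myeloid progenitors, Prkab1 and Prkag1 lower (-0.84 ± 0.17 and -0.66 ± 0.09) and Prkag2 higher (0.76 ± 0.15). Of all genes, 3.53% were called lower and 5.36% higher in that fit. Between wild-type cell types 4 of the 16 were higher in myeloid progenitors, among them the AMPK subunit gene Prkaa1 (70.5 to 154.6), and 5 lower, among them the AMPK subunit gene Prkag2 (141.3 to 33). Over all genes, 9.95% were called higher and 11.5% lower between wild-type cell types. Called genes of these lists lay in both directions, and the 3 called of the 10 genes were lower.

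Of the thioredoxin partners and arrestin relatives of Txnip, 0 of 10 were called in either FoxO comparison (2 and 2 at an unadjusted p under 0.05). Without array 2, Arrdc4, an arrestin relative that glucose also induces, was higher in deficient myeloid progenitors (0.83 ± 0.13, adjusted p = 0.00721), and its difference between the effects was 1.63 ± 0.2 (adjusted p = 0.00422). Txn1, the thioredoxin that Txnip binds, read 2508 and 2594, then 2501 and 2646. Of the TSC22 family and glucocorticoid response genes, 0 of 11 were called in LSK cells (2 at an unadjusted p under 0.05). The list holds Ddit4 itself, and its median in myeloid progenitors was -0.71 against 0.04 for all genes. There 4 of the 11 were lower and 0 higher, against 1.09% and 0.757% of all genes. The 4 were the kinase gene Sgk1 (739 to 363, -1.03 ± 0.15, limma adjusted p = 0.00874), Errfi1, a feedback inhibitor of the EGF receptor (166.8 to 76.5, adjusted p = 0.029), Tsc22d1 (1300 to 760.3, adjusted p = 0.0494) and Ddit4. Tsc22d3 itself read 51.5 and 61.1. Without array 2, Tsc22d2 was also lower (-0.7 ± 0.17) and Fkbp5, a cochaperone of the glucocorticoid receptor, higher (0.44 ± 0.1). Of the CITED family and its partners, 0 of 7 were called in either FoxO comparison (1 and 0 at an unadjusted p under 0.05). Without array 2, Hif1a, which competes with Cited2 for p300, was higher in deficient myeloid progenitors (0.34 ± 0.08, adjusted p = 0.0363).

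Other known FoxO targets, 31 measured genes besides the 10, had 0 called in LSK cells (5 at an unadjusted p under 0.05) and 4 lower in myeloid progenitors. These were Klf6 (1390 to 229.8, -2.6 ± 0.23, adjusted p = 0.000244), Trib1 and Klf2, both at or below background on 2 of 3 deficient arrays, and Cdkn1a (113 to 33.1, adjusted p = 0.0157). The immediate-early list holds Klf2 and Klf6 too. Without array 2, 9 were lower and 1 higher in deficient myeloid progenitors, among them the DNA damage response gene Gadd45a (-1.41 ± 0.16, lower) and the repressor gene Bcl6 (0.77 ± 0.13, higher). Of all genes, 1.09% were called lower there with all arrays, and 3.53% lower and 5.36% higher without array 2. In LSK cells Bcl2l11, the death gene that encodes Bim, was then higher (1.65 ± 0.09, adjusted p = 0.000162). The medians of the 31 genes were 0.05 in LSK cells and -0.05 in myeloid progenitors, against -0.04 and 0.04 for all genes.

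Regulators known to induce Ddit4 or sestrins were set beside these values. Of 15 p53 targets, 3 were lower in deficient myeloid progenitors, Cdkn1a, Pmaip1 (347.6 to 73.2) and Btg2 (132 to 14.7), and 0 were called in LSK cells (3 at an unadjusted p under 0.05). Btg2 is also on the immediate-early list and Cdkn1a on that of other known FoxO targets. Without array 2, Pmaip1 was higher in deficient LSK cells (1.11 ± 0.2, adjusted p = 0.0457). Of 15 targets of ATF4, the factor of the amino acid response, Ddit3 was lower (88.8 to 39.7, adjusted p = 0.00921) and Vldlr higher (48.5 to 118.4, adjusted p = 0.0216) in deficient myeloid progenitors, and 0 were called in LSK cells (1 at an unadjusted p under 0.05). Without array 2, 4 were lower and 2 higher in deficient myeloid progenitors, with Slc3a2 (-1.01 ± 0.09), Asns (-0.72 ± 0.11) and Atf4 itself (-0.61 ± 0.08) added to the lower ones and Psat1 (0.4 ± 0.08) to the higher. Of 17 hypoxia response genes, Vegfa was lower in deficient myeloid progenitors (120 to 47.8, adjusted p = 0.00351) and 0 were called in LSK cells (2 at an unadjusted p under 0.05). In myeloid progenitors the medians of the p53, ATF4 and hypoxia lists were 0.05, 0.12 and 0.06, against 0.04 for all genes. Of all genes, 1.09% were called lower and 0.757% higher there, or 3.53% and 5.36% without array 2. The part of any of these regulators in the Ddit4 result was not tested.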

How the data were processed

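The deposited values were intensities per probe set on a linear scale, with no scaling between arrays stated, and the sources used here do not name the software that summarised the probes. Per the labels' protocols, RNA was extracted with a Qiagen micro kit and amplified with NuGEN Ovation. Here log2(intensity + 0.6) was taken, the arrays were quantile normalized, and probe sets above the 40th percentile of their array on at least 3 arrays were kept. Each gene was represented by its brightest probe set. limma 3.58.1 in R 4.3.3 fitted 1 mean per group with 8 residual degrees of freedom, and p-values were adjusted by the Benjamini-Hochberg method. The script was tested on simulated data. Apart from 64 control probe sets, 34945 have 1 gene symbol in the platform annotation, 932 several and 9160 none, and only the first were named. The number of arrays limits the precision.

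The 10 genes and all lists were chosen with earlier results of these data known. The text names, of the lists, genes called in a FoxO comparison, at most 4 a list and comparison, and for each of the 10 genes called in any comparison of the 12 arrays the 3 genes of highest Pearson r, of which 1 is not reported here. Other genes named from the lists, and all those named without array 2, were chosen after their values were seen. Alternatives changed the offset, normalization, filter, probe sets, samples in the fit and array weights, and left out each array. Leaving out array 2 together with each other array was added after seeing the data.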

Additional observations from a re-analysis of the deposited data

Results flagged for a closer look

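The FoxO difference of Ddit4 in myeloid progenitors minus that in LSK cells was -2.79 on the log2 scale with all 12 arrays. It is given here because every deficient LSK array lay above every wild-type LSK array and every deficient myeloid progenitor array lay below every wild-type one, although the difference itself did not pass (limma adjusted p = 0.0743). Of all probe sets, 8.63% stood apart as higher in deficient LSK cells and 13.3% as lower in deficient myeloid progenitors. Without wild-type LSK array 2 the difference between the effects was -2.15 and passed (adjusted p = 0.000546). The Ddit4 difference was then 0.12 ± 0.14 in LSK cells, not called (limma adjusted p = 0.749), and -2.03 ± 0.12 in myeloid progenitors.

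The same difference passed without array 2 for Pik3ip1, at 1.03 (limma adjusted p = 0.043), and for Cited2, at 0.71 (adjusted p = 0.0167). With all arrays it was 0.75 and 0.63, and did not pass (adjusted p = 0.491 and 0.255).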

How the results depend on the processing

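Under the other settings, 391 values of the 10 genes kept direction and call, 8 lost the call, 15 gained one and 16 turned sign; with 1 array left out the counts were 447, 11, 8 and 14, and 0 values of turned sign were called. Turned values were, with median scaling, 0 for Tsc22d3 in LSK cells and 0.21 for Ddit4 between wild-type cell types; without normalization, 0.22 for Txnip and 0.24 for Tsc22d3 in LSK cells, 0.05 for Txnip in myeloid progenitors, -0.02 for Tsc2 between the effects and 0.15 for Ddit4 between cell types. With the mean of a gene's probe sets they were -0.45 for Sesn2, 0.5 for Txnip and 0.05 for Tsc1 in LSK cells, -0.14 for Sesn3 and -0.22 for Tsc22d3 in myeloid progenitors and 0.03 for Txnip between cell types. With array weights they were -0.35 for Sesn2 in LSK cells, 0.56 for Txnip between the effects and -0.02 for Cited2 between cell types. With 1 array left out, LSK values ran from -0.45 to 0.78 for Sesn2, -0.65 to 0.32 for Txnip and -0.81 to 0.37 for Tsc22d3. Values between the effects ran from -0.4 to 0.58 for Txnip, -0.12 to 1.05 for Tsc22d3 and -0.17 to 0.34 for Tsc2, and values between cell types from -0.73 to 0.18 for Ddit4 and -0.03 to 0.13 for Cited2.

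Counts of called genes over the whole array were 37 in LSK cells, 253 in myeloid progenitors, 118 between the effects and 2942 between wild-type cell types. An offset of 16 gave 129, 393 and 184 for the first 3, an offset of 32 gave 174, 507 and 217, the 60th percentile filter 93, 407 and 185, and array weights 148, 1230 and 440. Median scaling gave 22 in LSK cells and 72 between the effects, and no filter 16 and 75. No normalization gave 8, 113, 48 and 1834. Testing every kept probe set gave 464 in myeloid progenitors, 187 between the effects and 4619 between cell types. Fits of the compared groups alone in limma gave 0 in LSK cells (793 at an unadjusted p under 0.05), 983 in myeloid progenitors and 1355 between cell types. With 1 array left out the counts ran from 9 to 133, 132 to 1194, 56 to 472 and 2023 to 4696. The median of all genes moved by over 0.1 with median scaling between cell types (0.02 to 0.19) and without normalization in LSK cells (-0.04 to 0.24), in myeloid progenitors (0.04 to 0.17) and between the effects (0.07 to -0.07). The share of calls that were higher was 46.5% between cell types and 64.3% with median scaling, 33.9% between the effects against 23.6% and, without normalization, 12.5%, and 45.9% in LSK cells against 62.5% without normalization. The causes were not tested.

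The array numbers run from 1 to 12 and state no pairing between groups, so no paired analysis was made. Probe sets near background, among them both of Sesn2, limit what these arrays can show.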
